A study of Homo sapiens with 20 samples.

Results

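The genes that encode the AP-1 and ATF transcription factors were followed through 16 H3K27ac ChIP-seq libraries of HCT-116, a human colorectal carcinoma cell line. They were 10 of the 20033 protein-coding genes annotated on the main chromosomes: JUN, JUNB, JUND, FOS, FOSB, FOSL1, FOSL2, ATF3, ATF4 and BATF3. They were listed by name, but with earlier results of these data known, so the choice was not blind to the data. Each gene was given the H3K27ac peaks and super-enhancers (SEs) that overlapped its GENCODE gene body or the 10 kb on either side, on hg38. H3K27ac is an acetyl mark of active promoters and enhancers, and an SE is a long run of neighbouring H3K27ac peaks stitched into one domain. The cells were wild type (WT) or knocked out for FBXW7 (KO), and they received a control esiRNA (esiCT) or an esiRNA against HDAC4 (esiHDAC4) for 48 h. For the last 24 h they were left untreated (UNT) or given 50 uM oxaliplatin (OXPT). The 8 combinations of genotype, esiRNA and treatment had 2 libraries each, lettered A and B. FBXW7 is the substrate-binding subunit of a ubiquitin ligase, HDAC4 is a class IIa deacetylase, and oxaliplatin is a platinum drug that crosslinks DNA. The KO cells came from a commercial supplier and the sources used here do not say how many clones they were. The study's methods name 2 biological replicates per sample. The chromatin of 3 experiments was combined before sequencing, and nothing in the labels says that A and B were separate cultures. The p-values therefore measure the spread between these libraries.

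AP-1 is a dimer of basic leucine zipper proteins. JUN proteins pair with each other or with FOS proteins, FOS proteins need a JUN partner, and ATF and BATF proteins join the same network. AP-1 dimers bind the element TGANTCA, and ATF and CREB proteins bind the related element TGACGTCA or its core TGACGT. Many of these genes are immediate early genes, switched on within minutes of growth factor, stress or DNA damage signals through MAP kinases, and their proteins are short-lived. JUN is a known substrate of FBXW7. In colorectal carcinoma cells the MAP kinase pathway is often active, and FOSL1 and JUN are known as its targets there.

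The libraries did not call H3K27ac equally well. The lists held between 1752 and 27927 peaks, and the shortest were the 4 KO libraries lettered B, with 1752 to 8216 peaks against 12639 to 21875 in the KO libraries lettered A and 10562 to 27927 in the WT libraries. The study's methods name a minimum number of reads for every library, but the files gave no read totals, so the depth of each library was unknown and list length stood in for it. KRT8 and KRT18, keratins of simple epithelium, had a peak in 16 of 16 libraries, and EPCAM in 15. CDH1, the epithelial cadherin, had one in 10. The blood cell genes CD3E and HBB had none, and PTPRC had one in 2. H3K27ac at FBXW7 or HDAC4 checks neither the knockout nor the knockdown, so the labels stood unchecked in these libraries. The paper itself reports Sanger sequencing and immunoblots for the knockout, and immunoblots for HDAC4 silencing.

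The number of members with a peak followed the length of the list. WT esiCT UNT A, the longest list, had a peak at 9 of the 10 members. KO esiHDAC4 UNT B, the shortest, had a peak at JUND alone. The other KO libraries lettered B had 4 to 5 members with a peak, and the KO libraries lettered A had 8 to 9. The KO libraries as a group therefore carried both the genotype and the short lists, and a lost call in a B library cannot be told apart from a short list. Values were scaled and given a common floor below, which does not remove the effect of short lists: a missed call becomes a floor value. Values within each letter therefore stand beside the pooled ones.

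**Figure D1:**
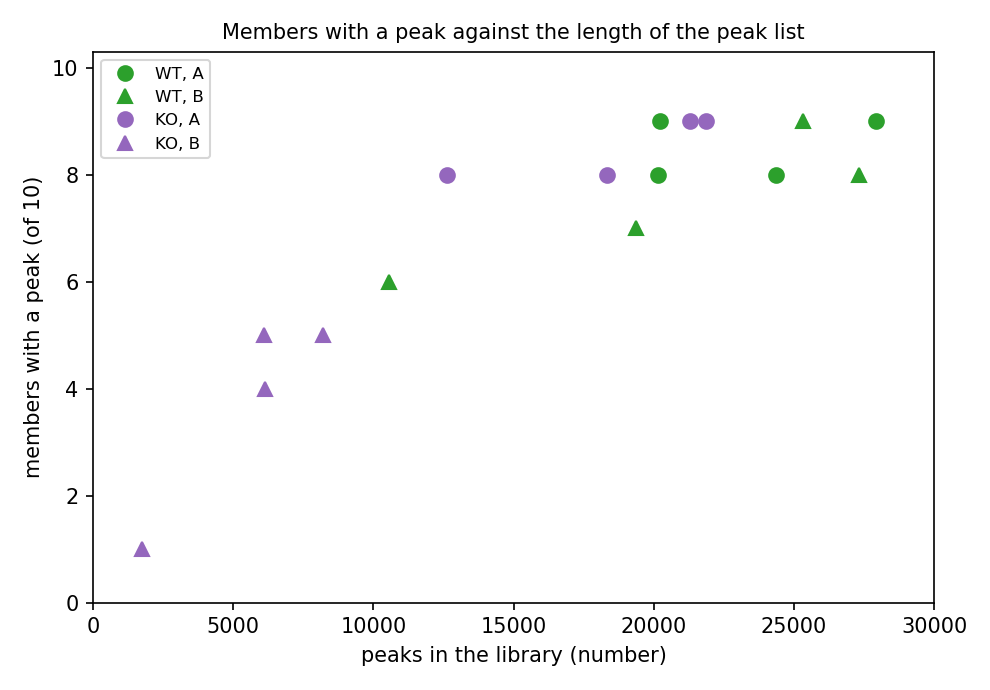
Members with a peak (vertical axis, of 10) against the peaks in the library (horizontal axis, number), 1 point per library, coloured by genotype and shaped by replicate letter. The 4 KO libraries lettered B sit at the lower left with 1 to 5 members, and the 12 other libraries have 6 to 9.

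No member had a peak in all 16 libraries. JUNB, FOSL1 and ATF4 had one in 15, JUND and ATF3 in 14, FOSL2 in 13, JUN and FOSB in 9, FOS in 8 and BATF3 in 1. Among all genes the median was 8 libraries, 2.42% had a peak in 16 and 21.0% had none in any. A peak in 8 or more libraries, the filter for testing a gene, was met by 9 members and by 52.0% of all genes. The calls were weak at most members: when only peaks with a -log10 q of 10 or more were counted, FOSL1 kept 7 libraries, ATF4 5, JUNB and ATF3 4, JUN, JUND and FOSL2 3, FOS 1, and FOSB and BATF3 0. When every list was cut to its 1752 strongest peaks, FOSL1 had a peak in 11 libraries, ATF4 in 7 and ATF3 in 6. JUN, JUNB, JUND and FOSL2 had one in 4, and FOS, FOSB and BATF3 in 0. The summit fold used below is the enrichment over background that the peak caller gave at the summit, and for each gene the highest summit in its window was taken.

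**Figure D2:**
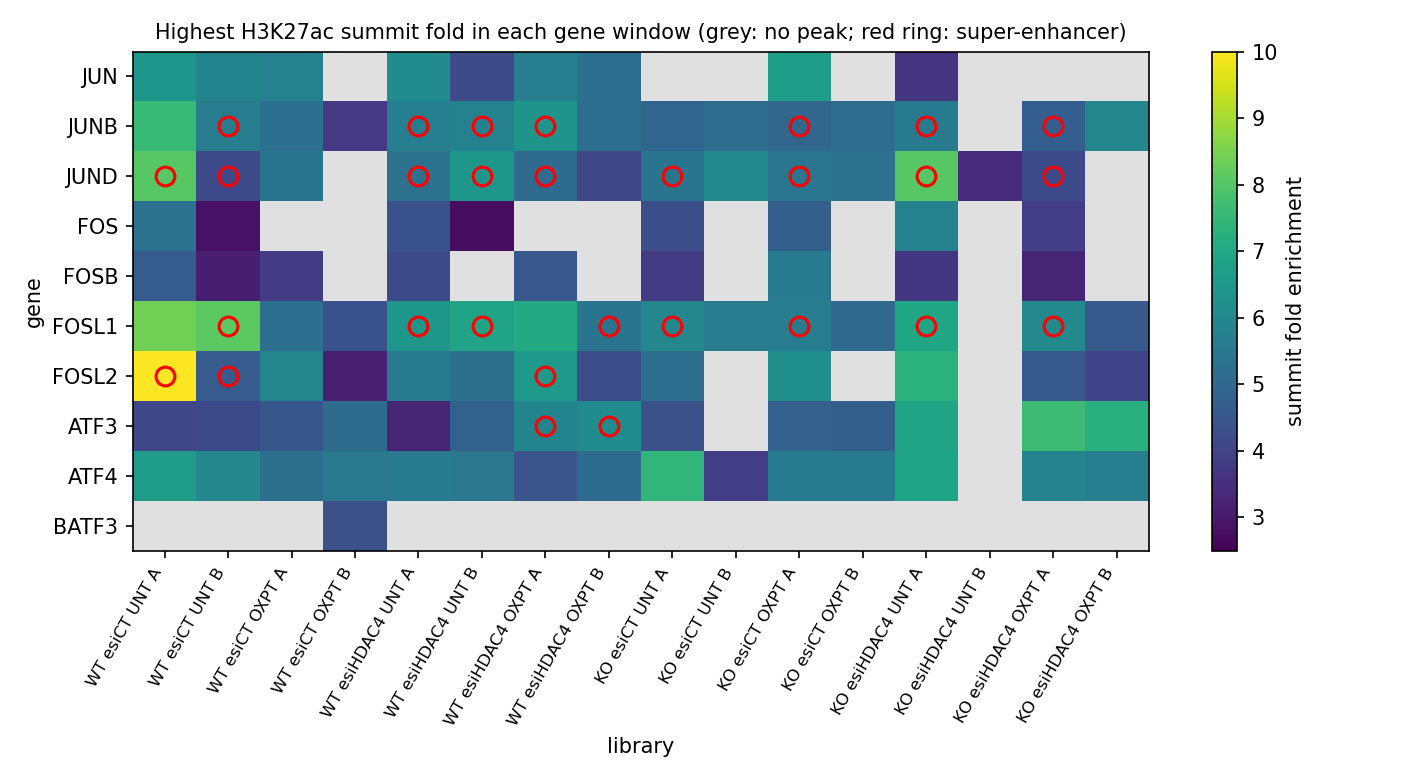
Highest summit fold (colour) of each member (rows) in each of the 16 libraries (columns), with grey for no peak and a red ring for an overlapping SE. JUNB, FOSL1 and ATF4 are coloured in 15 columns, and BATF3 in 1.

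In the JUN family, JUN itself had the fewest calls. JUN (chr1:58776845-58784048, minus strand) encodes c-Jun, the strongest activator among AP-1 proteins. Its highest summit fold was 6.43, 5.80, 6.12 and 5.71 in the WT A libraries (esiCT UNT, esiCT OXPT, esiHDAC4 UNT and esiHDAC4 OXPT), and 5.89, 4.23 and 5.24 in 3 WT B libraries, with no peak in WT esiCT OXPT B. In the KO it was 6.71 in KO esiCT OXPT A and 3.69 in KO esiHDAC4 UNT A, and the other 6 KO libraries had no peak. All 9 calls included a peak within 1 kb of the start of the gene.

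The merged region just upstream of that start, chr1:58784288-58786015 with its median summit at -0.74 kb, held the highest JUN peak in each of the 9 libraries. The promoter is printed because the call at JUN sits beside it. It is the 250 bases before the RefSeq start on GRCh38.p14, minus strand, chr1:58784048-58784297, and the capitals mark TGACATCA, a variant of the ATF element known in this promoter, with CCAAT and GGGCGG boxes on either strand:
JUN promoter: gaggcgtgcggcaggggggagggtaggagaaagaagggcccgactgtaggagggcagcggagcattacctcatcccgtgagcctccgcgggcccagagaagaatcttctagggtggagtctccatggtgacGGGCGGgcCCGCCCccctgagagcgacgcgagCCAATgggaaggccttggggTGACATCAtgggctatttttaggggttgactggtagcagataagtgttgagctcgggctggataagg
The match to TGACATCA starts at -67, and 2.37% of 35116 RefSeq promoters of the same length hold these letters on either strand.

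JUNB and JUND were called more often. JUNB (chr19:12791486-12793315, plus strand) encodes an AP-1 subunit that activates more weakly than c-Jun and often restrains it. Its fold ran from 3.75 in WT esiCT OXPT B to 7.59 in WT esiCT UNT A, with a median of 5.23 over 15 libraries, and only KO esiHDAC4 UNT B lacked a peak. Its window held the most peaks of any member, a median of 7 per library. The most frequent JUNB region, chr19:12785376-12797029, was 11654 bases long and present in 15 libraries. A region at its far end, chr19:12800255-12802622, present in 14, lay at the starts of PRDX2 and THSD8, so its signal cannot be assigned to JUNB alone. JUND (chr19:18279694-18281622, minus strand) encodes the most steadily expressed JUN protein. Its fold ran from 3.44 in KO esiHDAC4 UNT B to 8.05 in WT esiCT UNT A, median 5.36, and WT esiCT OXPT B and KO esiHDAC4 OXPT B had no peak. Its calls fell in 3 regions of 13 libraries each, 2 at the start of the gene and 1 at chr19:18290694-18294239, -10.9 kb from it.

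Of the 21 member regions present in 8 or more libraries, 1 held TGANTCA in the 300 bases around its median summit. It lay -8.38 kb from the JUNB start in a region of 10 libraries, chr19:12781366-12785078, and held the element 3 times. TGANTCA was found in 7.29% of the 10762 regions of that kind in the genome, and 6 of them (0.0558%) held it at least 3 times. The window is chr19:12782961-12783260 on the plus strand of hg38, with TGANTCA and GGGCGG in capitals on either strand:
JUNB upstream region: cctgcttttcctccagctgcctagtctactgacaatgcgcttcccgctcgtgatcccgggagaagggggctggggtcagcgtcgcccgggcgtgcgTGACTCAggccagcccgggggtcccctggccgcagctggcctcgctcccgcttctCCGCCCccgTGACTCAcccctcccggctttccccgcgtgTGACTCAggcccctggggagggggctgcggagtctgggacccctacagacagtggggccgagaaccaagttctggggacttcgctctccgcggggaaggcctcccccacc
The summit fold there was 6.11, 4.21, 5.34 and 3.16 in the WT A libraries in the order above, 3.32 in both WT UNT B libraries, and 4.87, 4.98, 5.62 and 3.27 in the KO A libraries in the same order. The other 6 libraries, all lettered B, had no peak.

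In the FOS family the classical immediate early genes had the weakest marks. FOS (chr14:75278826-75282230, plus strand) encodes c-Fos, the best known immediate early protein. Its fold was 5.32 and 4.40 in the WT UNT A libraries and 2.87 and 2.77 in the WT UNT B libraries, with esiCT first. None of the 4 WT OXPT libraries had a peak. The KO A libraries all had one, at 4.31, 4.78, 5.79 and 3.88 for esiCT UNT, esiCT OXPT, esiHDAC4 UNT and esiHDAC4 OXPT, and none of the KO B libraries did. On the scaled values used below, both WT UNT B values sat at the floor given to genes without a peak. The WT libraries lettered B thus showed no OXPT difference at FOS. WT esiCT OXPT B also had a short list, of 10562 peaks. The promoter is printed because the region at the FOS start, chr14:75278540-75279600, carried the mark in each of the 8 libraries. It is the 250 bases before the RefSeq start on GRCh38.p14, plus strand, chr14:75278578-75278827, with TGACGT and TATAAA and GGGCGG in capitals:
FOS promoter: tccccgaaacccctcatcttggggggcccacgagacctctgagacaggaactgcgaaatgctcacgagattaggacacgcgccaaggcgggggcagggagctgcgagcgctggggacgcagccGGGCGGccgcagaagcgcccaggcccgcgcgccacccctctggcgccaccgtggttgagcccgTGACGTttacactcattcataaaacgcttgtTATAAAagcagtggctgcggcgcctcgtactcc
TGACGT starts at -64 and TATAAA at -33, letters held by 2494 and 3763 of the 35116 promoters. TGACGT was also found at FOSB (-60), FOSL2 (-66) and JUND (3 matches), so 4 of the 8 members with a RefSeq promoter carried it, against 2494 of 35116 promoters. ATF3 counts as lacking it because its RefSeq promoters lie away from the canonical start, whose promoter is given below.

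FOSB (chr19:45467995-45475179, plus strand), whose protein resembles c-Fos, had fold 4.68, 3.84, 4.17 and 4.55 in the WT A libraries, 3.83, 5.58, 3.71 and 3.27 in the KO A libraries and 3.12 in WT esiCT UNT B. The last value came from the region at the ERCC1 start, and at FOSB's own start the fold in that library was 2.37. The 7 other B libraries had no FOSB peak. FOSL1 (chr11:65892049-65900573, minus strand) encodes Fra-1, which lacks the strong activation domain of c-Fos and is induced by sustained MAP kinase signalling. It had the highest median of the members, 5.98, with a range from 4.38 in WT esiCT OXPT B to 8.41 in WT esiCT UNT A. A single region inside the gene, chr11:65896036-65900427, was present in 15 libraries. FOSL2 (chr2:28392448-28417317, plus strand) encodes Fra-2, the longer-lived relative of Fra-1. It held the highest value of any member, 9.99 in WT esiCT UNT A, and its lowest was 3.15 in WT esiCT OXPT B, with a median of 5.27 over 13 libraries. The 3 libraries without a FOSL2 peak were KO libraries lettered B.

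ATF3 (chr1:212565334-212620777, plus strand) encodes a stress-induced factor that forms dimers with JUN proteins and is induced by DNA damage, p53 and ATF4. Its 55.4 kb annotation reaches far upstream of the canonical start at chr1:212608761. Its fold was 4.09, 4.52, 3.28 and 5.87 in the WT A libraries (esiCT UNT, esiCT OXPT, esiHDAC4 UNT and esiHDAC4 OXPT) and 4.18, 5.16, 4.84 and 6.15 in the WT B libraries in the same order. It was 4.35, 4.80, 6.87 and 7.63 in the KO A libraries. In the KO B libraries it was 4.78 with esiCT OXPT and 7.27 with esiHDAC4 OXPT, and both KO UNT B libraries had no peak. On the scaled log2 fold, OXPT minus UNT with esiCT was 0.58 and 0.76 in WT A and B, and 0.06 and 0.67 in KO A and B. With esiHDAC4 it was 0.99 and 0.56 in WT A and B, and 0.41 and 1.36 in KO A and B. Both KO B values rest on a missing UNT peak in a short list, set to the floor. The letters did not pair every library, and how many of all genes rise in every pair was not counted. ATF3 varied most of the 9 members tested, with an SD of 0.49 on the scaled log2 fold over 16 libraries.

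ATF4 (chr22:39519695-39522683, plus strand) encodes the effector of the integrated stress response, controlled mainly through translation of its mRNA. Its fold ran from 3.86 in KO esiCT UNT B to 7.44 in KO esiCT UNT A, with a median of 5.58, and only KO esiHDAC4 UNT B had no peak. Its most frequent region, in 14 libraries, lay at the start of the neighbour RPS19BP1, and the region at its own start was present in 13. BATF3 (chr1:212686417-212699840, minus strand), known for its part in dendritic cell development, was at the other end. Its one peak, of fold 4.37 in WT esiCT OXPT B, lay 18.6 kb beyond the start on the far side of the gene, so BATF3 was left out of every test.

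Over the 10 windows the peaks of all libraries merged into 52 regions. Of these, 21 were present in 8 or more libraries and 20 in 1. Regions at their own gene's start numbered 15 and covered 9 members, and 6 regions lay at the start of another gene (PRDX2 and THSD8, IQCN, ERCC1, FIBP, CCDC85B or RPS19BP1).

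SEs were called over 5 of the 10 members, against 8.07% of all genes with an SE in any library. JUND had one in 9 libraries, FOSL1 in 8, JUNB in 7, FOSL2 in 3 and ATF3 in 2. JUN, FOS, FOSB, ATF4 and BATF3 had none. The JUNB domains were 18.2 to 23.1 kb long and all 7 covered the JUNB start. The JUND domains were 13.6 to 29.2 kb and 5 of 9 covered the JUND start, while the other 4 lay beside it. FOSL1 domains of 14.6 to 23.2 kb covered the start in 7 of 8 libraries, and the 3 FOSL2 domains, of 12.1 to 20.4 kb and all in WT libraries, covered it in 1. The 2 ATF3 domains were short, 3.39 and 3.57 kb, lay inside the gene upstream of the canonical start, and were found in WT esiHDAC4 OXPT A and B. No KO B library had an SE over a member, and neither WT esiCT OXPT library had one. The SE lists also differed in length, from 66 to 1265 SEs. They held 66 to 435 in the KO B libraries, and 394 and 284 in WT esiCT OXPT A and B. KO esiCT UNT A, with 287 SEs, had one over 2 members. The part of list length in the missing SEs was not tested.

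SE presence could be tested for JUNB, JUND, FOSL1 and FOSL2, which had one in 3 to 13 libraries. By a two-sided exact permutation test with labels exchanged within letters, 0 of 739 genes passed in any of the 3 factors (percent called 0), and 47, 10 and 1 had an unadjusted p under 0.05 for genotype, OXPT and esiHDAC4. The members' smallest unadjusted exact p was 0.214, for FOSL2 (0 KO against 3 WT libraries) and for JUND (3 OXPT against 6 UNT).

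The first comparison, KO against WT, asks how loss of FBXW7 moved H3K27ac at these genes. JUN fell in the KO and no other member passed the test. On the scaled log2 summit fold the difference was -0.52 (SE 0.14), 1.44-fold lower, over 8 libraries a side, with an adjusted p of 0.0246 by limma. Genes without a peak were raised to a floor of fold 3.08, and the size of the JUN difference depended on this choice. With a different floor, given with the processing alternatives below, the JUN difference kept its direction but was smaller and missed the threshold. JUN was the 1 member called of 9 tested, a share to be read against 8.43% of all genes tested, 11 of them higher and 867 lower. The median difference over all 10414 genes tested was -0.16, and the members' median was -0.01. Uncalled genes sat at the floor and the KO libraries lettered B had the shortest lists, so a lower mark in the KO cannot be told apart from short lists here. The difference at JUN was -0.57 within letter A and -0.48 within letter B, each with an exact permutation p of 0.143.

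Counting libraries gave the same order at JUN, 7 WT against 2 KO libraries with a peak (exact permutation p = 0.0306, adjusted p = 0.233). No gene of 11069 passed that test (percent called 0), with 1627 at an unadjusted p under 0.05. The call at JUN depended on the fit. Without the replicate block its adjusted limma p was 0.109, and by an exact permutation within letters it was 0.0943. It was also lost in 7 of the 16 fits that left out 1 library: KO esiCT OXPT B (adjusted limma p 0.0799), KO esiCT UNT A (0.0545), KO esiHDAC4 OXPT A (0.0524), KO esiHDAC4 UNT B (0.0545), WT esiCT OXPT A (0.0639), WT esiCT UNT B (0.0819) and WT esiHDAC4 OXPT B (0.0674).

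FOSL2 had the next largest difference, -0.25 (SE 0.13, adjusted p = 0.214 by limma), with -0.16 in letter A and -0.34 in letter B. FOSL2 also had fewer peaks in the KO, a mean of 1.88 per library against 3.63 in the WT (exact permutation p = 0.0367, adjusted p = 0.144). FOSL1 had a mean of 3.25 peaks in the KO against 6.38 in the WT (exact permutation p = 0.0518). On peak number 0 of 10414 genes passed (percent called 0) and 3179 had an unadjusted p under 0.05. The number of peaks moved with list length, and the part of that in these differences was not tested.

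**Figure D3:**
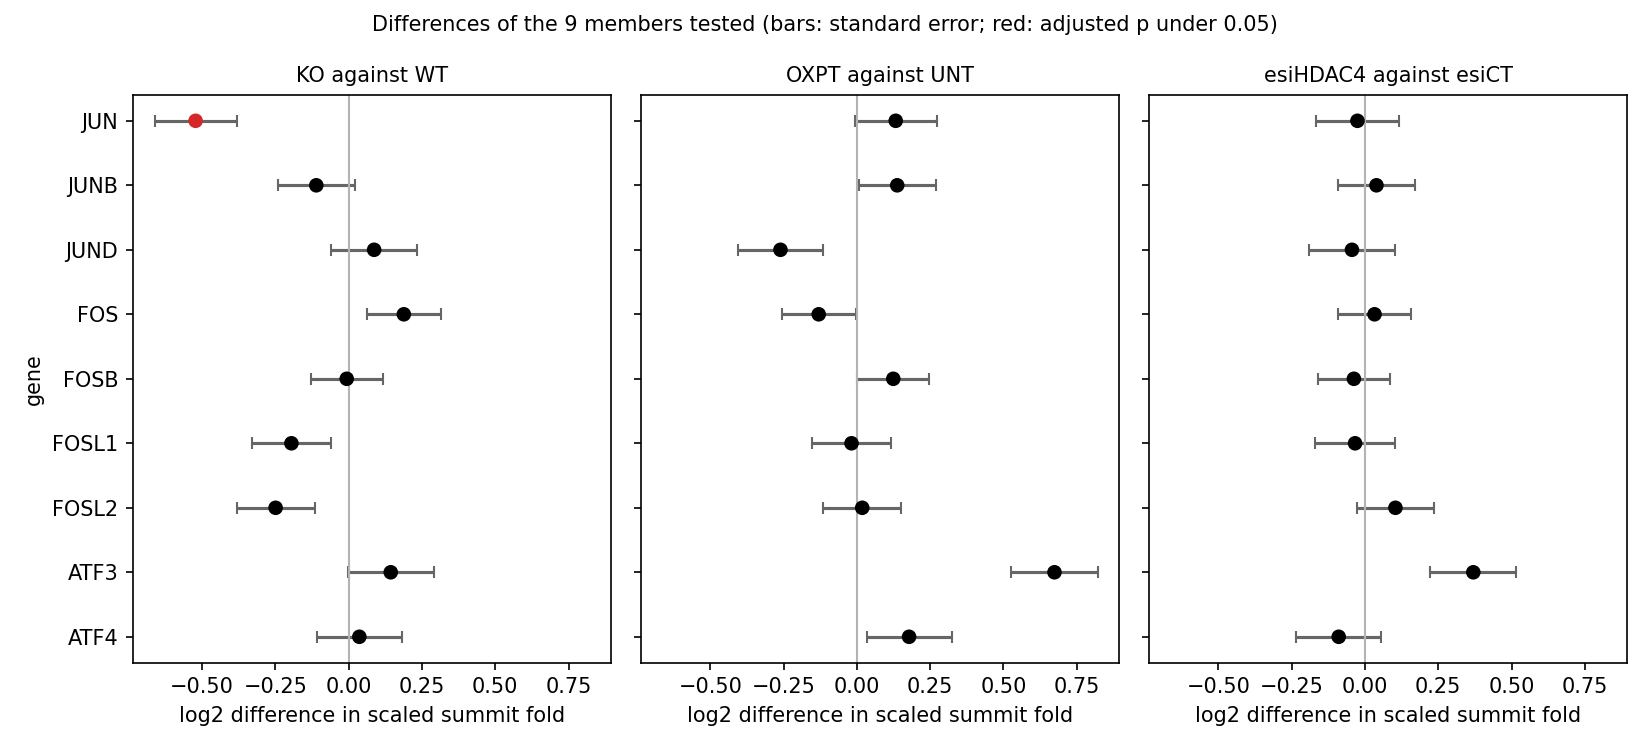
Log2 difference in scaled summit fold (horizontal axis) of the 9 members tested (rows), by genotype in the first panel, by OXPT in the second and by esiHDAC4 in the third, with bars for 1 standard error and red for an adjusted p under 0.05. JUN in the first panel is the one red point, and ATF3 in the second lies farthest to the right, at 0.67.

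Regions resolve what one value per gene merges. In the region fit a region without a peak was set to fold 1.74, below the 3.08 used for genes, so the sizes of region and gene differences do not rest on the same floor. The same fit on the 10762 merged regions present in 8 or more libraries, an alternative added after the data had been seen, called 1908 regions in KO against WT (17.7%), of which 15 were higher. Of the 21 member regions, 2 were called and both were lower. At the JUN upstream region the difference was -1.06 (SE 0.27, adjusted p = 0.0122 by limma). It was present in 7 WT and 2 KO libraries, and leaving out WT esiCT UNT B raised the adjusted limma p to 0.0536. At the JUND region -10.9 kb from the start the difference was -0.76 (SE 0.25, adjusted p = 0.0392 by limma), where 8 WT and 5 KO libraries had a peak. Without the replicate block these became 0.0663 at JUN and 0.139 at JUND. The JUND call was lost whenever any B library was left out, and also without KO esiHDAC4 OXPT A (0.0726) or WT esiCT UNT A (0.0517), with adjusted limma p from 0.0213 to 0.120 over the 16 fits. Within letter A the difference at this JUND region was -0.31 and within B -1.21. A share of 2 in 21 is below the 17.7% of all regions, and the members' regions had a median difference of -0.17 against -0.42 for all regions.

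The second comparison, OXPT against UNT, asks how the drug moved H3K27ac at stress-responsive AP-1 genes. ATF3 stood highest among the members. On the scaled log2 summit fold its difference was 0.67 (SE 0.15), 1.60-fold higher, over 8 libraries a side. With an adjusted limma p of 0.0509 it missed the threshold, so 0 of 9 members were called, against 0.144% of all genes tested (15 genes, all higher). At an unadjusted p under 0.05 limma had 741 genes and 1 member. The difference was 0.51 within letter A (exact permutation p = 0.143) and 0.84 within letter B (exact permutation p = 0.0286). By exact permutation over both letters the unadjusted p was 0.0045 and the adjusted p 0.508, and 0 genes passed, with 636 at an unadjusted p under 0.05. ATF3 came past the limma threshold when KO esiCT UNT A (0.0473), KO esiHDAC4 UNT A (0.0103) or WT esiHDAC4 UNT B (0.0455) was left out.

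JUND had the second largest difference under OXPT, -0.26 (SE 0.15, adjusted p = 0.772 by limma). FOS was called in 2 OXPT against 6 UNT libraries (exact permutation p = 0.0918, adjusted p = 1), and of 11069 genes 0 passed (percent called 0) with 93 at an unadjusted p under 0.05. The mean number of ATF3 peaks was 4.13 with OXPT and 2.25 without (exact permutation p = 0.104). On peak number 0 genes passed (percent called 0), and 115 had an unadjusted p under 0.05.

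At the level of regions 1 ATF3 region passed the test. The region chr1:212596443-212598197, in an intron, has its median summit at -12.0 kb from the canonical ATF3 start and 31.5 kb inside the annotated gene. It had a peak in 8 of 8 OXPT libraries and 3 of 8 UNT libraries. With OXPT its fold was 4.52 and 5.16 in WT esiCT A and B, 5.87 and 6.15 in WT esiHDAC4, 4.50 and 4.78 in KO esiCT, and 7.63 and 7.27 in KO esiHDAC4. Without OXPT it was 3.32 in WT esiCT B, 3.28 in WT esiHDAC4 A and 3.83 in KO esiCT A, with no peak in the other 5. On presence alone the region had an unadjusted exact permutation p of 0.0306. Of 20090 merged regions 0 passed that test (percent called 0), with 426 at an unadjusted p under 0.05. The region rose by 1.43 (SE 0.25) on the scaled log2 fold, with an adjusted limma p of 0.00674. The 5 UNT libraries without a peak were set to the region floor, which was not varied, so this size and p depend on it. The 8 OXPT calls alone met the filter of 8 libraries. This region was the 1 called member region of 21, against 0.446% of all 10762 regions (48, all higher). A further tested ATF3 region, chr1:212560629-212562319, upstream of the annotated gene, had fold 3.43 to 4.72 in 5 OXPT libraries and 2.73 to 3.13 in 3 UNT libraries, and no peak in the others. Its difference of 0.55 (SE 0.25, unadjusted p = 0.0359 and adjusted p = 0.792 by limma) did not pass.

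The difference at the intronic ATF3 region was 1.23 within letter A and 1.64 within letter B, each with an exact permutation p of 0.0286, the smallest that 4 against 4 allows. Without the replicate block the adjusted limma p was 0.0458. By exact permutation within letters the p was 0.000408, the smallest the design can give, and the adjusted p was 0.133. All these p-values rest on the same calls. The OXPT calls alone met the filter and the UNT libraries without a peak sat at the floor, so none is separate support for the rise. Leaving out each library in turn gave differences from 1.29 to 1.58, and the adjusted limma p went over the threshold without KO esiHDAC4 UNT B (0.0586) and without WT esiCT UNT A (0.0549). The region at the canonical ATF3 start, chr1:212608816-212610011, was present in 5 UNT and 4 OXPT libraries and differed by -0.28 (SE 0.30). The region just upstream of the intronic one, chr1:212595079-212596296, was called in 4 OXPT libraries and 1 UNT library, too few for the test. The highest ATF3 value without OXPT, 6.87 in KO esiHDAC4 UNT A, came from the canonical start and not from the intron.

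**Figure D4:**
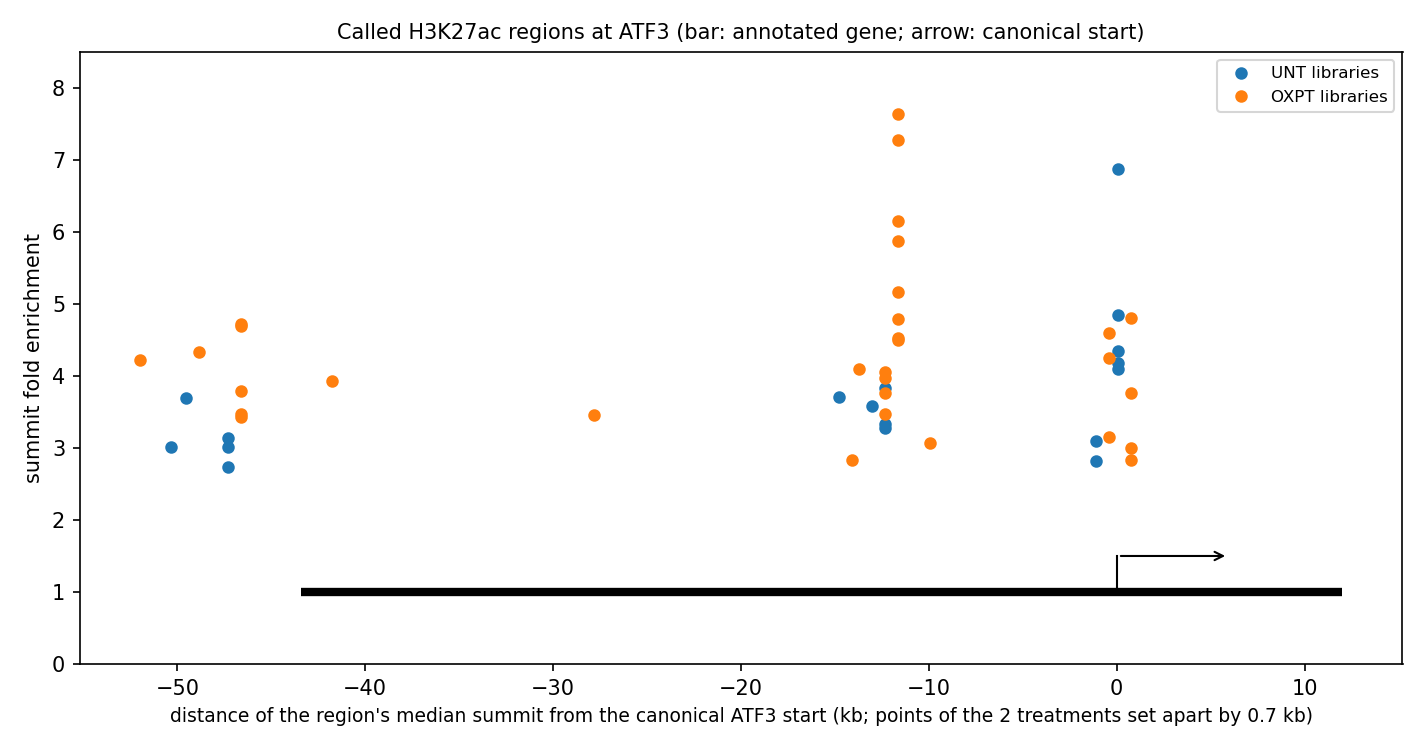
Summit fold (vertical axis) of every called region at ATF3 in every library, against the distance of the region's median summit from the canonical start (horizontal axis, kb), with UNT and OXPT points set 0.7 kb apart, a bar for the annotated gene and an arrow for the canonical start. At the intronic region near -12.0 kb the 8 OXPT points run from 4.50 to 7.63 and the 3 UNT points from 3.28 to 3.83, while at the start both treatments are mixed.

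The sequence under the intronic summit is printed with the canonical promoter, so that the region that rose can be set beside the one that did not pass. The first is chr1:212596637-212596936, plus strand of hg38, with CCAAT in capitals, and the second is the 250 bases before the canonical start, chr1:212608511-212608760, plus strand of hg38, with TGACGT and TGATGNAA and TATAAA in capitals on either strand:
ATF3 intronic region: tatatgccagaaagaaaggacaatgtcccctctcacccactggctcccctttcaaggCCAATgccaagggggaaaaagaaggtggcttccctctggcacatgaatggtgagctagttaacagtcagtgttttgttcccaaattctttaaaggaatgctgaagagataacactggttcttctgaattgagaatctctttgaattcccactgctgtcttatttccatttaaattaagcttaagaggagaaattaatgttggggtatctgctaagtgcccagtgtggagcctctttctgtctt
ATF3 canonical promoter: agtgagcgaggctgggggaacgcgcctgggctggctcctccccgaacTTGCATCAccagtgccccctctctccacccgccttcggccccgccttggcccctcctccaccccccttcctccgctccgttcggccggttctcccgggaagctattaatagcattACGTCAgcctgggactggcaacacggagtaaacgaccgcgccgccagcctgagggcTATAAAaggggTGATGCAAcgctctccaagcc
The canonical promoter held TGATGNAA, a form of the composite element of C/EBP and ATF4, at -203 and -21 (3.14% of 35116 RefSeq promoters hold it), TGACGT at -88 and TATAAA at -32. The intronic window held CCAAT once, and no TGANTCA or TGACGTCA or TGACGT or TGACATCA or TGATGNAA and no p53 half-site, which says only that these letters are not in these 300 bases. CCAAT was in 24.1% of the windows of the 10762 regions.

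**Figure D5:**
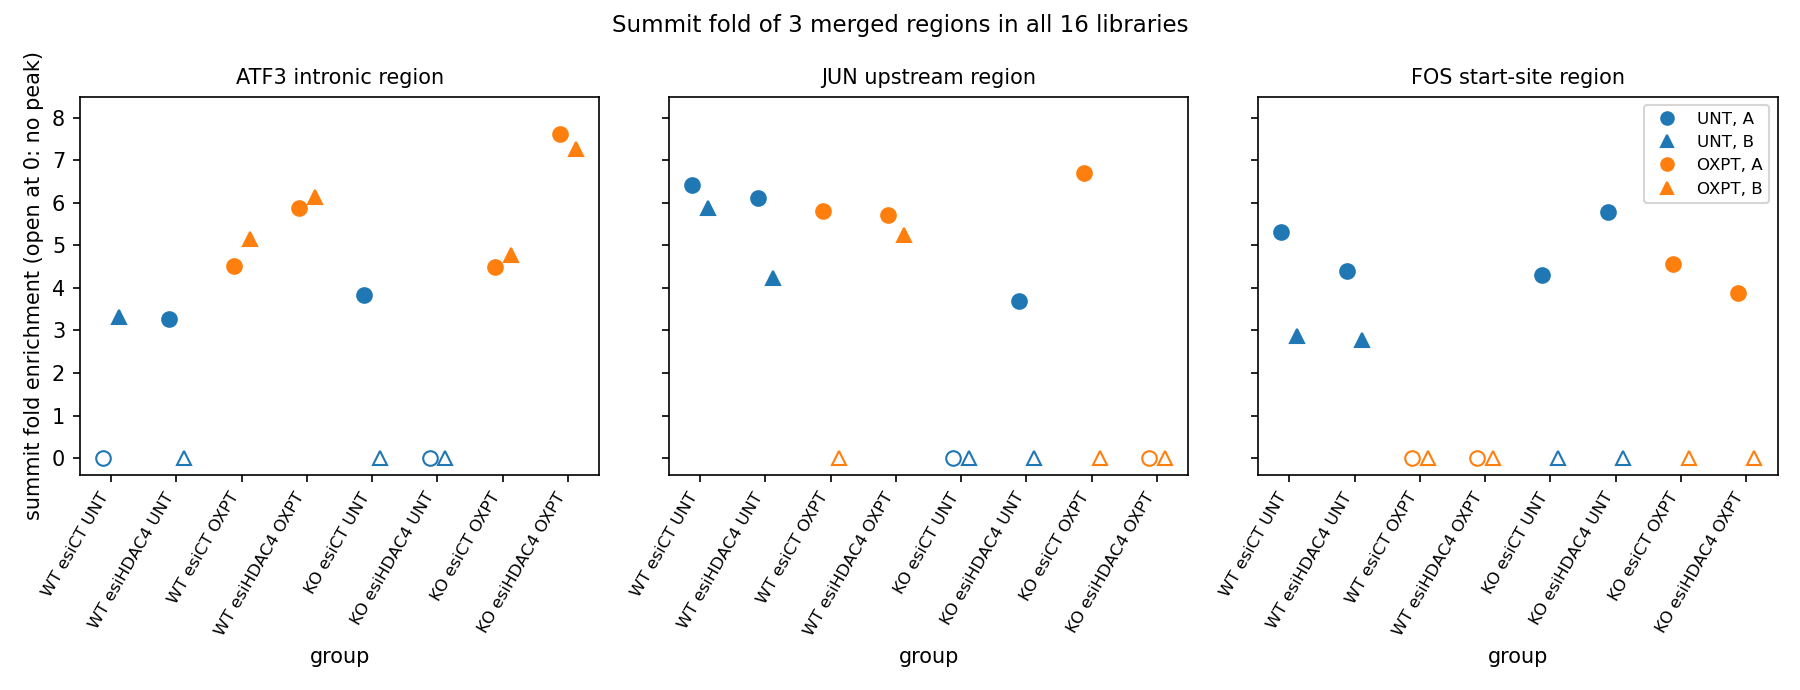
Summit fold enrichment (vertical axis, with open symbols at 0 for no peak) of the ATF3 intronic, JUN upstream and FOS start-site regions in the 8 groups (horizontal axis), 1 symbol per library, circles for A and triangles for B, blue for UNT and orange for OXPT. The ATF3 region is filled in all 8 OXPT libraries, the JUN region in 7 WT and 2 KO libraries, and the FOS region in 4 WT UNT and 4 KO A libraries.

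The FOS start region showed another arrangement. It was called in 4 of 4 WT UNT, 0 of 4 WT OXPT and 4 of 4 KO A libraries, and how many of all regions share this was not counted. Its presence in 2 OXPT against 6 UNT libraries had an unadjusted exact permutation p of 0.0918, and 0 of 20090 regions passed. On the scaled log2 fold it differed between OXPT and UNT by -0.50 (SE 0.25, adjusted p = 0.873 by limma). With the KO B libraries empty at every treatment, the KO side of this pattern rested on letter A alone.

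The third comparison, esiHDAC4 against esiCT, asks how depletion of HDAC4 moved the mark. No member was called, and neither was any of the 10414 genes by limma (percent called 0), with 333 genes and 1 member at an unadjusted p under 0.05. By exact permutation 0 genes were called, with 265 at an unadjusted p under 0.05. ATF3 had the largest difference, 0.37 (SE 0.15, unadjusted p = 0.0179 and adjusted p = 1.00 by limma), with 0.46 in letter A and 0.28 in letter B. FOSL2 came second with 0.10 (SE 0.13). Presence of a peak and number of peaks passed for 0 genes (percent called 0), with 11 and 17 at an unadjusted p under 0.05. None of the 10762 regions was called (percent called 0), with 264 at an unadjusted p under 0.05.

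Between single groups, 2 libraries against 2, limma called 0 of 10414 genes (percent called 0) in each of 5 contrasts, and 417 to 515 genes had an unadjusted p under 0.05. For OXPT in WT esiCT cells, ATF3 differed by 0.67 (SE 0.29; 0.58 in A, 0.76 in B) and FOSL1 by -0.34. For OXPT in KO esiCT cells, JUN differed by 0.51, all of it from letter A (1.03), and ATF3 by 0.37. The difference between these responses was 0.73 (SE 0.40) at JUN and -0.30 (SE 0.42) at ATF3, both with an adjusted limma p of 0.999. For esiHDAC4 under OXPT, the KO showed 0.80 (SE 0.29; 0.91 in A, 0.69 in B) at ATF3 and -0.51 at JUN, and the WT showed 0.43 at JUN and 0.32 at JUNB. These contrasts share libraries with one another and with the pooled ones. The highest ATF3 values of the series, 7.63 and 7.27, were those of the KO esiHDAC4 OXPT libraries.

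Other genes around AP-1 were read from fixed lists. The lists were named targets of AP-1, targets of ATF4, MAP kinases with their kinases and phosphatases, and other basic leucine zipper factors. Of 16 AP-1 targets 9 were tested, and in KO against WT PLAUR, the urokinase receptor, fell by 0.46 on the log2 scale, with a list median of -0.15 beside the -0.16 of all genes. Of 22 MAP kinase genes 20 were tested and MAPK14, the p38 kinase, fell by 0.42, with a median of -0.07. Of 28 other factors 21 were tested, and MAFK fell by 0.61 and BACH1 by 0.50, partners in the oxidative stress response, with a median of -0.19. None of the 10 ATF4 targets tested, of 14, passed, and CEBPB had the largest difference, -0.23. These calls stand beside 8.43% of all genes tested. No gene of these lists was called under OXPT or esiHDAC4, where 0.144% and 0% of all genes were. BATF2, a relative of BATF3, had the largest OXPT difference of any list, 0.48 (SE 0.13, adjusted p = 0.180 by limma), with a peak in 5 OXPT and 3 UNT libraries. The largest differences in the other lists under OXPT were 0.29 at PLAU, 0.23 at SLC3A2 and 0.24 at DUSP4. Under esiHDAC4 they were 0.42 at MAP2K3, 0.41 at BATF2, 0.12 at VEGFA and -0.15 at PPP1R15A.

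The genes whose scaled log2 fold was most like that of ATF3 over the 16 libraries, among 10404 genes on other chromosomes or at least 1 Mb away, were GDF15 (Pearson r = 0.83), a secreted stress cytokine, C1GALT1 (r = 0.82), a glycosyltransferase of O-glycans, and MICA (r = 0.81), a stress-induced ligand of an immune receptor. All points of such a correlation share their libraries, the scaling and the floor, and the values are a description.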

How the data were processed

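H3K27ac ChIP-seq was performed by the authors in HCT-116 cells, with paired-end reads trimmed (Trimmomatic 0.39), aligned to hg38 (Bowtie2 2.4.4) and cleared of duplicates (SAMtools 1.18). The authors called peaks per library (MACS2 2.2.7.1) and SEs with ROSE, and deposited the summit fold enrichment (a ratio over background), -log10 p and -log10 q of each peak, a score of 10 times the -log10 q, and SE positions. The methods give a minimum read number for all libraries, but the depth of each was unknown. They restrict SEs to those that also carry H3K4me1, and no source used here says whether the deposited lists are the restricted ones. The 4 input samples were not used. Members and lists were chosen with earlier results of these data known.

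Peaks and SEs were assigned to GENCODE v44 gene bodies with 10 kb either side. The highest summit fold per gene was put on the log2 scale, shifted per library to equal medians over the 484 genes with a peak in all 16 libraries, and raised to a common floor (log2 1.62). Genes with a peak in 8 or more libraries were fitted with limma 3.58.1 (R 4.3.3) as 8 groups plus replicate letter, since the study's methods model the replicate, with Benjamini-Hochberg adjustment at 0.05. Presence of peaks and SEs, and peak number, were tested by two-sided exact permutation within letters (4900 arrangements, Python 3.11.15). The 28 correlations between same-lettered libraries of their deviations from group means were 0.0103 to 0.326, so the letters did not pair every library. Named in each contrast were the 2 members with the largest absolute difference and any past the threshold, regions in 8 or more libraries, and per list those called or largest. The value of 1 listed AP-1 target is not reported here. Scripts were tested on simulated data. Sequences came from RefSeq promoters (8 of 10 members matched) and hg38. Motifs searched on both strands were TGANTCA and TGACGTCA and TGACGT (which overlaps the former) and TGACATCA and TGATGNAA and TATAAA and CCAAT and GGGCGG, with the CArG box and the p53 half-site. Alternatives changed scaling, floor, filter, window, summary, block, test and libraries. Merged regions without a peak were set to a lower floor (fold 1.74), and this region floor was not varied. The 10th-percentile floor, merged regions, peak number, region presence and single letters were added after seeing the data.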

Additional observations from a re-analysis of the deposited data

Results flagged for a closer look

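At ATF4 the response to esiHDAC4 under OXPT went opposite ways in the 2 genotypes. On the scaled log2 summit fold it was -0.22 and -0.25 in the WT libraries lettered A and B, and 0.31 and 0.12 in the KO libraries, a difference of 0.45 (KO minus WT). The values did not all come from one place: in WT esiCT OXPT A and B and in both KO OXPT libraries lettered B the highest summit lay 12.4 to 12.7 kb from the ATF4 start, at the start of RPS19BP1. In the region at ATF4's own start the differences had the other sign, 0.71 (SE 0.57, adjusted p = 1.00 by limma) in WT and -0.67 (SE 0.57, adjusted p = 0.946 by limma) in KO, with no peak there in WT esiCT OXPT B and KO esiHDAC4 OXPT B. Each value by letter compares 1 library with 1 library, the difference between genotypes was not tested, and the main ATF4 contrasts did not pass the threshold.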

How the results depend on the processing

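The numbers of genes called were the least stable values. For KO against WT the 878 genes became 3088 with no scaling, 19 with uncalled genes left missing, 368 with a peak in at least 1 library, 343 within 1 kb of the start, 97 with fold summed over peaks, 46 with the 10th-percentile floor, 535 by exact permutation and 1908 as regions. For OXPT against UNT the 15 became 1 with no scaling, 0 with missing values, 6 with each library's own floor, 0 within 1 kb of the start, 40 with summed fold, 5 with the 10th-percentile floor, 0 by exact permutation and 48 as regions. Without the replicate block, so without pairing by letter, they became 2 and 3, the regions 418 and 7, and the only member calls that ended were those of JUN and of the JUN and JUND regions. Leaving out single libraries gave 152 to 1037 genes for KO against WT, with 152 without KO esiHDAC4 UNT B, 262 without WT esiCT UNT B, 304 without WT esiHDAC4 UNT B, 339 without WT esiHDAC4 OXPT B, 413 without KO esiCT OXPT B and 533 without KO esiHDAC4 OXPT B, and 3 to 14 genes for OXPT, where only leaving out KO esiCT UNT A or B, KO esiHDAC4 OXPT B or KO esiHDAC4 UNT A kept the number within 1.5 times of 15. The regions ran from 499 to 2519 and from 6 to 49.

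With summed fold, 36 genes were called for esiHDAC4 and 56, 3, 40, 6 and 10 for OXPT in WT esiCT, OXPT in KO esiCT, their difference, esiHDAC4 in KO OXPT and esiHDAC4 in WT OXPT, where the main counts were 0. In that order a peak in at least 1 library gave 7, 3, 2, 11 and 14, and the 10th-percentile floor gave 30, 4, 9, 4 and 20; the library's own floor gave 1 in the first. JUN in KO against WT kept its direction but missed the threshold with a peak in at least 1 library, within 1 kb of the start (-0.37) and with the 10th-percentile floor (-0.14), and summed fold put it at the floor in all 16 libraries. ATF3 under OXPT stayed positive, 0.33 to 0.82 over 27 alternatives, with adjusted limma p from 0.0103 to 0.519. FOSL2 under esiHDAC4 turned to -0.038 with summed fold and -0.022 with the 10th-percentile floor, and the ATF3 difference in OXPT response turned to 0.25 with no scaling and 0.29 with summed fold. The causes were not tested. Presence of peaks and of SEs gave 0 genes under the alternatives run, and presence of 20090 merged regions gave 0 by exact permutation, with 2740, 426 and 44 at an unadjusted p under 0.05 for genotype, OXPT and esiHDAC4. Short lists limit the KO B libraries: a gene without a call there may carry a mark below the threshold.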
